A study of Mus musculus with 4 samples.

Results

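Chemokines, cytokines, their receptors and the signalling genes of the NF-kB pathway were examined in cultured mouse brown adipocytes, fat cells that burn fuel for heat. The genes were chosen by symbol: names that start with Ccl, Cxcl, Cx3cl1, Ccr, Cxcr, Il and a number, Tnf, Csf1 to Csf3, Nfkb, Saa, Lcn2 or Socs, together with Lif, Lifr, Rel, Rela and Relb. Il6 and Cxcl14 were left out. Such a symbol, and no other, was carried by 114 of 23599 probe sets, which cover 84 of 10926 named genes. Where a gene had several probe sets, the one with the highest mean signal across the 4 arrays was used. No Ccr or Cxcr receptor was among the 84 genes. Those receptors, Nfkb1, Rel and Lif were not analysed here.

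The study compared cells that carried an empty vector with cells that expressed Blnc1, a long noncoding RNA of brown fat. Preadipocytes, labelled wild type, received either construct and were differentiated for 6 days. Total RNA was read on 4 Affymetrix mouse arrays, 2 for the vector and 2 for Blnc1. The promoter of the vector, the mouse strain, the sex and the origin of the preadipocytes are not given in the sources used here. The labels call the replicates biological without saying what separated them, so p-values measure only the spread between these arrays. All values are log2 signals of probe sets, and all differences are Blnc1 minus vector on the log2 scale.

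NF-kB is a dimer of Rel-family proteins that IkB proteins hold in the cytoplasm. Tumour necrosis factor, interleukin 1 and Toll-like receptor ligands free it through the IkB kinase complex, and it then induces chemokines, cytokines, acute phase proteins and its own inhibitors, among them Nfkbia and Tnfaip3. Receptors of the gp130 and haematopoietic cytokine families signal instead through JAK kinases and STAT factors, which induce the SOCS inhibitors. In fat tissue most of the inflammatory cytokine output is known to come from macrophages and stromal cells, while adipocytes themselves respond to these signals and secrete some of the chemokines.

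Among these genes the promoters of Nfkbia, Tnfaip3 and Cxcl10 carry sequences of the kind that NF-kB binds. They are shown so that the values of these genes can be read beside them, and Cxcl12 is shown because it had the smallest p of the module. Each sequence is 1 RefSeq promoter (GRCm38.p6) from 250 bases before to 50 bases after the annotated start, 5′ to 3′ along the gene, the first entry where a gene has several. Capitals mark matches to GGGNNNTTC on either strand.
Nfkbia (chr12:55492598-55492897, minus strand): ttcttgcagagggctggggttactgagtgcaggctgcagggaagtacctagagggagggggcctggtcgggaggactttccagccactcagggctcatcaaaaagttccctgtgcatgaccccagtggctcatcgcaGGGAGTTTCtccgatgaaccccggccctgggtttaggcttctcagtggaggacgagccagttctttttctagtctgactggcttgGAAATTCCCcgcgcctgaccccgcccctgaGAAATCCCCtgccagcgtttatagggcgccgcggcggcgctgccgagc
Tnfaip3 (chr10:19015361-19015660, minus strand): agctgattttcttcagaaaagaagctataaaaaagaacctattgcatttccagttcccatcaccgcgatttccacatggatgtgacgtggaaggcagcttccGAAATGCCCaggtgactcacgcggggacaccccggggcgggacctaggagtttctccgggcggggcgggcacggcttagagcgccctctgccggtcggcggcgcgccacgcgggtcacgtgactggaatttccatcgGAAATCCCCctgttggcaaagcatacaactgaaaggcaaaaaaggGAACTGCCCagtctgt
Cxcl10 (chr5:92348840-92349139, minus strand): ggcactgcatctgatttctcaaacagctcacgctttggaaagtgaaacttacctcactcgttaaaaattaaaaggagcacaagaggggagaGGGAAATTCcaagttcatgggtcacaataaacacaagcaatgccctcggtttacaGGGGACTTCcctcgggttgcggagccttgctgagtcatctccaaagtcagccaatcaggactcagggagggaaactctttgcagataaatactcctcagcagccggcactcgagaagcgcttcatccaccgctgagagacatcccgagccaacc
Cxcl12 (chr6:117168285-117168584, plus strand): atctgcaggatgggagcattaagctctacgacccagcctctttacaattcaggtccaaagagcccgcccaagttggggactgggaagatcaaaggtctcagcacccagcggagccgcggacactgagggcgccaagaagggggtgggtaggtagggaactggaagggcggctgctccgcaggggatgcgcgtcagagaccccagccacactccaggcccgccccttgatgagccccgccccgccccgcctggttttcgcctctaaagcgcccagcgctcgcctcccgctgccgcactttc

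GGGNNNTTC, a core of the NF-kB binding motif searched on both strands, occurred 3 times in the Nfkbia sequence, 3 times in Tnfaip3, 2 times in Cxcl10 and nowhere in this window of Cxcl12. Of the 84 genes 60 had a promoter entry, and 19 of these (31.7%) held the motif, against 14.0% of all 27025 genes with an entry. In 5 of the 60 it occurred at least 2 times, against 1.16% of all genes, and besides the 3 printed genes these were Il17rc and Nfkb2. The 27025 genes were not limited to those measured here, as the 60 were. The form of the motif was also chosen after matches of longer and wider forms had been seen, so these shares are a description. The 19 genes with the motif had log2 differences between -0.35 (Cxcl9) and 0.13 (Il18), with a median of -0.025. The 41 without it ranged from -0.57 (Il1r1) to 0.27 (Il13ra1), with a median of -0.011. None of the 60 passed the test described next.

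With limma, and p-values adjusted by Benjamini-Hochberg over all 23599 probe sets, none of the 84 genes passed the threshold of 0.05, neither higher nor lower. Over all named genes 0.86% passed as higher and 0.366% as lower, so a count of 0 among 84 genes lies near the background. At an unadjusted p under 0.05, 3 genes were higher (Nfkbiz, Il13ra1 and Il10rb) and 5 lower (Cxcl12, Il1r1, Tnfaip2, Cxcl9 and Il17rc), against 11.7% and 9.08% of all genes. The same linear model without moderated variances called 0 probe sets in the whole table, so its 0 calls here carry no information. In that model 5 of the 84 had an unadjusted p under 0.05. The share of all genes at that p in it is not given here, so the 5 cannot be set against a background. Both Blnc1 arrays lay above both vector arrays for 12 genes and below them for 15. Over all genes this held for 28.3% and 24.9%.

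The genes of this module differed little between the groups. Their median log2 difference was -0.0050, with 38 positive and 46 negative, beside 0.0073 over all genes. The range ran from -0.57 (Il1r1) to 0.33 (Nfkbiz). The median size of the difference, whatever its sign, was 0.082, beside 0.109 over all genes, and 6 of the 84 (7.14%) exceeded 0.25 against 17.5% of all genes. For the 21 genes above the mean array median the median size was 0.137, beside 0.113 for all genes above it. Of these 21, 14.3% exceeded 0.25, beside 18.7% of all genes above it. These shares are descriptions without a test. For 80 of the 84 genes the 95% interval of the difference lay within a 1.5-fold change either way, and for all 84 within a 2-fold change. Cxcl12, Il1r1, Tnfaip2 and Tnfsf13 were the 4 whose interval reached past 1.5-fold. These intervals bound the probe set signal and not the amount of RNA. Of the 84 genes 63 lay below the mean array median, and how far so dim a signal follows the RNA was not tested.

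**Figure D1:**
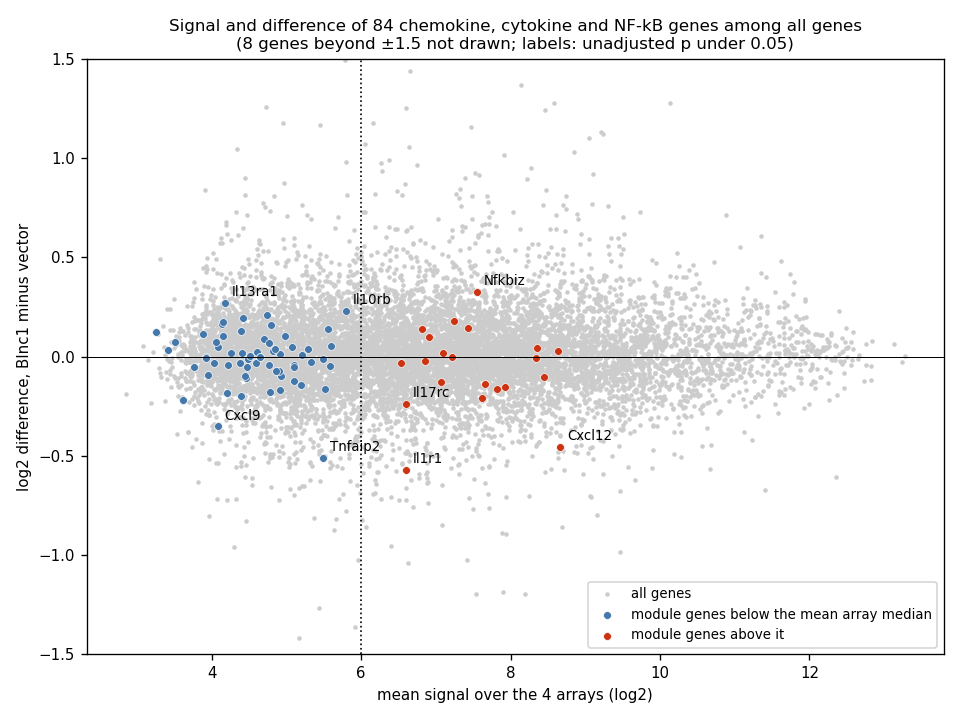
Mean log2 signal over the 4 arrays (x axis) against the log2 difference, Blnc1 minus vector (y axis), of the 84 genes (blue below and red above the mean array median of 6.00, dotted) and all named genes (grey). Most of the 84 sit at the dim end near 0, and the 8 genes with an unadjusted p under 0.05 are labelled.

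Signal was low for most of the module. The array medians lay between 5.98 and 6.04, and 21 of the 84 genes (25%) had a mean signal above the mean of these medians, against 59.6% of all genes. All 21 also lay above the median on each of the 4 arrays, as did 6251 of all 10926 genes. Above the median were Cxcl12, Csf1, Lcn2, Lifr, the receptors Il15ra, Il17rc, Il1r1, Il6st, Tnfrsf1a and Tnfrsf12a, Rela, Nfkbia, Nfkbiz, Tnfaip1, Tnfaip3, Tnfaip8 and 5 SOCS genes. No interleukin and no TNF-family ligand was among them, and 1 of 18 chemokine ligands was. The gene just below the median was Il10rb (5.80) and the one just above it Socs5 (6.54). A probe set's signal depends on its probes as well as on the RNA, so these counts rank no gene's RNA against another's. The 63 dimmer genes had a median absolute difference of 0.072 and the 21 brighter ones of 0.137, beside 0.104 and 0.113 for all genes below and above the median. The part of signal level in these differences was not tested.

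**Figure D2:**
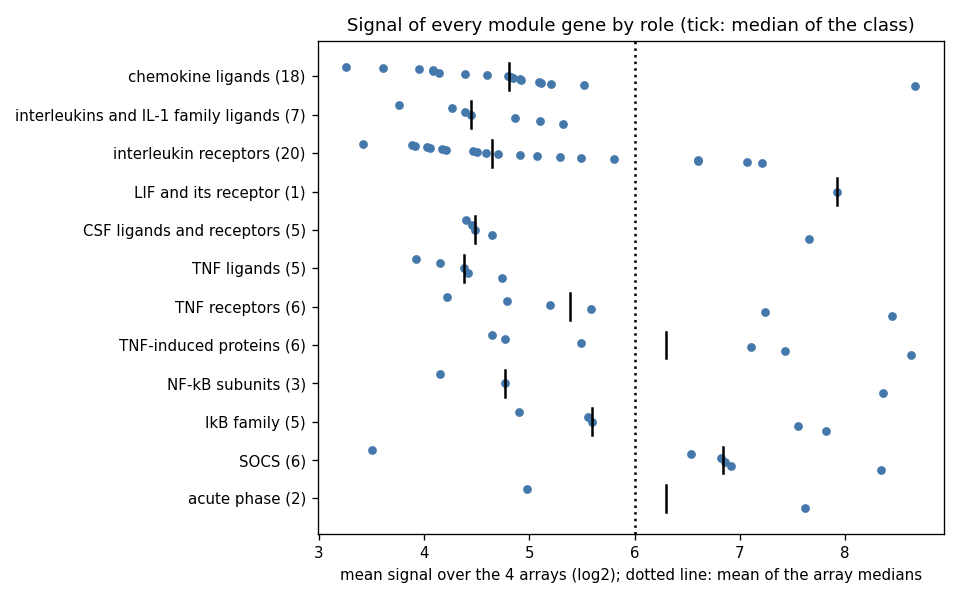
Mean log2 signal over the 4 arrays (x axis) of every gene of the module, by role, with the number of genes in each class in brackets, the class median as a tick and the mean array median as a dotted line. Of 6 SOCS genes 5 lie to the right of the line, and all 7 interleukins and 5 TNF ligands lie to its left.

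As a check of the labels, the brighter probe set of the expressed transcript (C730029A08Rik in the platform annotation, a symbol listed with Blnc1 among the synonyms of Paqr9) read 8.08 and 8.14 on the vector arrays and 12.73 and 12.75 on the Blnc1 arrays. The cells carried the marker signal of adipocytes. The 6 measured general adipocyte markers (of 8 listed) averaged 11.57 to 11.58 in the vector arrays and 11.56 to 11.59 in the Blnc1 arrays. Of the brown markers 7 of 8 were measured, and they averaged 7.19 to 7.23 and 8.60 to 8.69, with 5 of the 7 higher and past the test, among them Ucp1, the heat-producing uncoupling protein. The 4 measured macrophage markers (Adgre1, Itgax, Fcer1g and Laptm5, of 14 listed) were all below the array median, averaging 4.34 to 4.47 and 4.41 to 4.50. Of 3 other leukocyte markers (10 listed), Cd3e lay above the median, at 6.16 to 6.37 on the 4 arrays, and Ms4a1 and S100a9 lay below it. Both measured endothelial markers (of 9 listed) were below it, averaging 4.15 to 4.33 and 4.17 to 4.21. The 5 measured preadipocyte and fibroblast markers (of 8) averaged 5.76 on both vector arrays and 5.41 and 5.48 on the Blnc1 arrays, with 5 of 5 negative, at a median of -0.34, and none past the test. They were Dpt (-0.55), Dlk1 (-0.42), Thy1 (-0.34), Dcn (-0.16) and Pdgfra (-0.093). Their part in the differences below was not tested. In RNA of a culture, fewer cells of a type and less RNA per cell cannot be told apart. All 18 hybridization control probe sets read lower in Blnc1 arrays, by a median of -0.27. As a sign of RNA quality, the 3′ probe set of Gapdh read 0.41 above its 5′ probe set on average with vector and 0.28 above it with Blnc1, and that of Actb 1.51 and 1.34.

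Among the chemokine ligands, Cxcl12 and Cxcl9 differed most. Cxcl12 encodes the ligand of the receptor Cxcr4 and is known to hold haematopoietic cells near stromal cells. It read 8.87 and 8.91 on the vector arrays and 8.45 and 8.43 on the Blnc1 arrays. The groups did not overlap, and the gap between them was far wider than that between replicates of either group. The log2 difference was -0.45 ± 0.076 (SE, 95% interval -0.64 to -0.27), which did not pass (limma adjusted p = 0.0631). A dimmer probe set of the gene read 5.20 and 5.14 against 4.59 and 4.76, a difference of -0.49 (limma adjusted p = 0.0770). So both probe sets of Cxcl12 were lower on both Blnc1 arrays, and neither passed. The preadipocyte and fibroblast markers given above lay the same way, at a median of -0.34. When the variance prior was allowed to follow the signal level, Cxcl12, Il1r1 and Tnfaip2 passed as lower, while 4.94% of all genes then passed as lower. Their adjusted p-values in that fit were 0.00124, 0.00677 and 0.0257.

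Cxcl9 and Cxcl10, neighbouring genes induced by interferon gamma that attract T cells, were dim. Cxcl9 read 4.29 and 4.23 on the vector arrays and 3.95 and 3.86 on the Blnc1 arrays. Its groups did not overlap, and its difference of -0.35 ± 0.081 (SE) did not pass (limma adjusted p = 0.109). Cxcl10, whose promoter with 2 motif matches is printed above, read 3.85 and 3.59 against 3.59 and 3.42. Here the lowest vector array and the highest Blnc1 array nearly touched, at a difference of -0.22 ± 0.12 (SE, limma adjusted p = 0.379). The monocyte attractant Ccl2 read 5.71 and 5.49 against 5.55 and 5.32, with overlapping groups and a difference of -0.16 (95% interval -0.46 to 0.13). Ccl8, a related monocyte attractant, stood at -0.20 ± 0.089 (SE, limma adjusted p = 0.296), from 4.42 and 4.55 to 4.24 and 4.33. The other 13 ligands were Ccl5, Ccl7, Ccl9, Ccl19, Ccl20, Ccl24, Ccl25, Ccl27a, Ccl28, Cx3cl1, Cxcl13, Cxcl16 and Cxcl17. Their differences lay between -0.12 (Ccl9) and 0.16 (Cxcl17). For Ccl25 the brighter probe set stood at 0.16 and the dimmer at 0.42, from 4.16 and 4.17 to 4.63 and 4.54 (limma adjusted p = 0.0782 for the dimmer). Of the 18 ligands 9 were positive and 9 negative, with a median of -0.019.

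**Figure D3:**
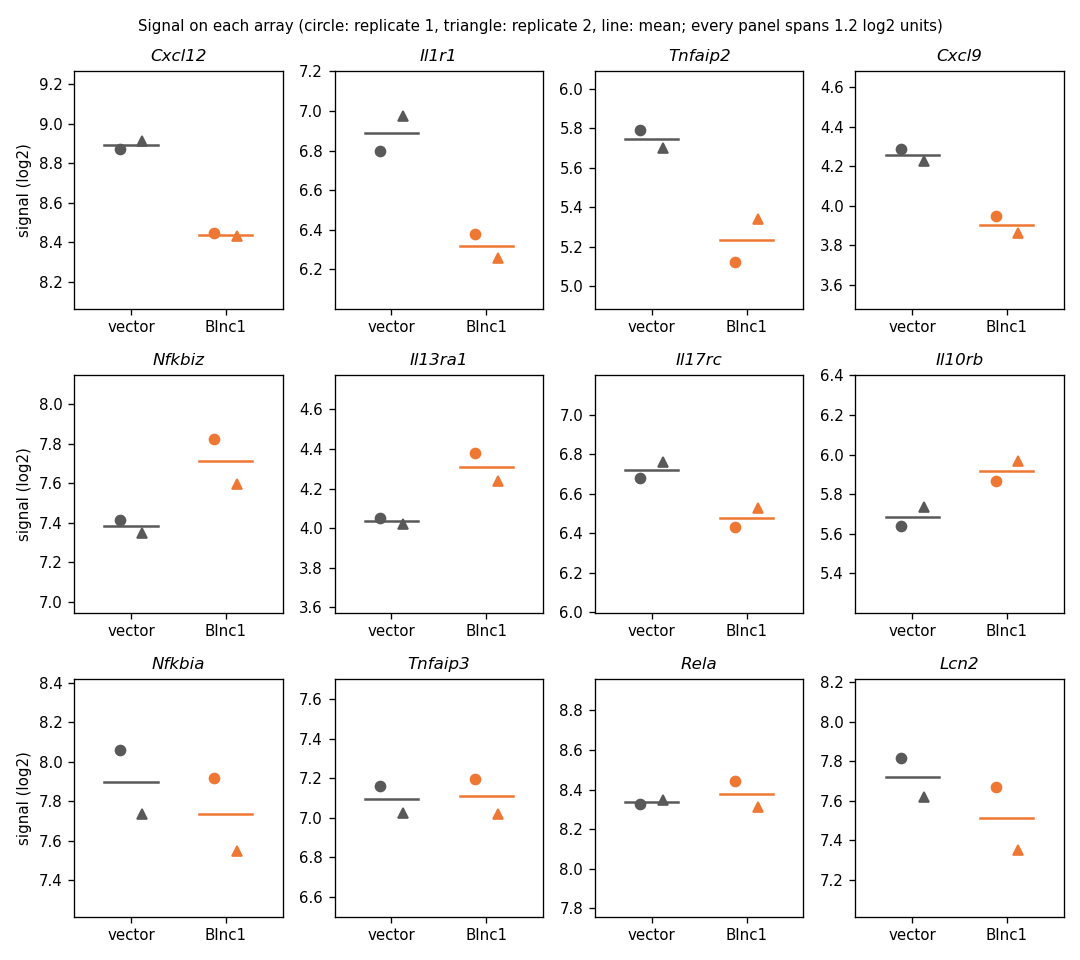
Log2 signal on each of the 4 arrays (y axis, the same span in every panel) for the 8 genes with an unadjusted p under 0.05, followed by Nfkbia, Tnfaip3, Rela and Lcn2; circles are replicate 1, triangles replicate 2 and lines group means. The groups are apart in the first 8 panels and overlap in the last 4.

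The interleukins themselves were all dim. Il1b, the main secreted form of interleukin 1, read 4.51 and 4.47 on the vector arrays and 4.35 and 4.44 on the Blnc1 arrays. Its difference was -0.096, with a 95% interval of -0.29 to 0.10. Il1rn, the natural antagonist of the interleukin 1 receptor, stood at -0.025 on its brightest probe set and at -0.37 and -0.083 on the other 2. Il18 stood at 0.13, its blocker Il18bp at -0.074 and Il20, a member of the interleukin 10 family, at -0.052. The replicates of Il18 on Blnc1 arrays, 4.28 and 4.63, were further apart than the group means. Il17b stood at -0.052 and Il1f8 at 0.018, which completes the 7.

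Il1r1, the signalling receptor of interleukin 1, had the largest difference of the module. It read 6.80 and 6.98 on the vector arrays and 6.38 and 6.25 on the Blnc1 arrays. Every Blnc1 value was below every vector value, by more than the gap between replicates of either group. Its difference was -0.57 ± 0.098 (SE, 95% interval -0.81 to -0.33), a lower signal that did not pass (limma adjusted p = 0.0658). After each array was centred on its median Il1r1 passed narrowly, at an adjusted p of 0.0495 (limma). How many of all genes passed in that fit is not given here. Il1rap, the accessory chain that Il1r1 needs to signal, stood at -0.011 with a 95% interval of -0.20 to 0.18, from 5.51 and 5.47 to 5.46 and 5.50.

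Other interleukin receptors differed less. Il17rc, a subunit of the interleukin 17 receptor, read 6.68 and 6.76 against 6.43 and 6.53, a difference of -0.24 ± 0.083 (SE, limma adjusted p = 0.206). Il13ra1, shared by the interleukin 4 and 13 receptors, was dim and read 4.05 and 4.02 against 4.38 and 4.24, a difference of 0.27 ± 0.086 (SE, limma adjusted p = 0.179). Its groups were apart, as were those of Il10rb, a chain of the interleukin 10 receptor, which went from 5.64 and 5.73 to 5.87 and 5.97, a difference of 0.23 ± 0.085 (SE). Il4ra, the chain that pairs with Il13ra1, stood at -0.031 and Il17ra at -0.035. Il15ra, which presents interleukin 15, read 7.23 and 7.19 against 7.35 and 7.08, with a difference of -0.0030 and a 95% interval of -0.27 to 0.26. The 10 receptors not named elsewhere here were Il13ra2, Il17rb, Il17rd, Il17re, Il18rap, Il22ra2, Il2rb, Il31ra, Il3ra and Il27ra, and they ranged from -0.18 (Il27ra) to 0.12 (Il3ra). Over the 20 interleukin receptors 9 were positive and 11 negative, with a median of -0.0034.

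Of the gp130 receptors Il6st and Lifr were bright and Il6ra was dim. Il6st, the gp130 chain shared by the interleukin 6 family, read 7.12 and 7.14 on the vector arrays and 7.05 and 6.94 on the Blnc1 arrays. Lifr, its partner for leukaemia inhibitory factor, read 7.95 and 8.05 against 7.89 and 7.80. Il6ra, the chain that binds interleukin 6, read 4.99 and 5.01 against 4.75 and 4.90. In all 3 the Blnc1 arrays lay below the vector arrays, as they did for 24.9% of all genes. The differences were -0.13 for Il6st, -0.15 for Lifr and -0.17 for Il6ra, and none passed (limma adjusted p 0.359 to 0.455). Related receptor chains outside the naming rule went otherwise. Osmr overlapped between the groups, at -0.069, and Cntfr, described below, was higher on both Blnc1 arrays, at 0.44.

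Colony stimulating factors and their receptors were close between the groups, and of these 5 genes only Csf1 lay above the array median. Csf1, the growth factor of macrophages, read 7.76 and 7.69 against 7.50 and 7.68, a difference of -0.14 (95% interval -0.36 to 0.090). Both Blnc1 arrays lay below both vector arrays, as for 24.9% of all genes, though 7.68 and 7.69 nearly touched. The other 3 probe sets of Csf1 stood at -0.14, -0.043 and -0.086. Csf1r, the macrophage receptor for Csf1, was dim in all arrays, at 4.56 to 4.74, with a difference of -0.00053. Csf3, which drives granulocyte production, stood at -0.11, its receptor Csf3r at -0.010 and Csf2rb, the shared beta chain of the receptors for GM-CSF, interleukin 3 and interleukin 5, at 0.019.

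Of the TNF superfamily the ligands were dim and the receptors mixed. Tnf itself read 4.45 and 4.34 against 4.26 and 4.47, with a difference of -0.030 (95% interval -0.28 to 0.22). Tnfsf10, the death ligand TRAIL, stood at 0.19 ± 0.089 (SE), Tnfsf13, a B cell factor, at 0.21 ± 0.16 and Tnfsf4, a T cell costimulator, at 0.11 ± 0.14. In Tnfsf13 1 vector array read 4.39, apart from the other 3 arrays at 4.83 to 4.87. Tnfrsf1a, the main TNF receptor of non-immune cells, read 8.46 and 8.53 against 8.38 and 8.41, a difference of -0.10 (95% interval -0.29 to 0.086). Tnfrsf12a, the receptor of the cytokine TWEAK, read 7.13 and 7.17 against 7.35 and 7.31, and its other probe set 6.50 and 6.37 against 6.61 and 6.64. Both of its probe sets were higher on both Blnc1 arrays, by 0.18 and 0.19 (limma adjusted p = 0.279 and 0.295). Tnfrsf1b, the TNF receptor typical of leukocytes, stood at -0.18 ± 0.13 (SE). Tnfsf13b, another B cell factor, stood at -0.0062, and the receptors Tnfrsf4, Tnfrsf9 and Tnfrsf22 at -0.14, -0.042 and -0.047.

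Genes named for their induction by TNF had no common direction, with 3 positive and 3 negative. Tnfaip2 read 5.79 and 5.70 on the vector arrays and 5.12 and 5.34 on the Blnc1 arrays. The groups were apart, and the difference of -0.51 ± 0.10 (SE, 95% interval -0.76 to -0.26) did not pass (limma adjusted p = 0.0843). Tnfaip3, which encodes the ubiquitin-editing inhibitor A20 and whose promoter with 3 motif matches is printed above, read 7.16 and 7.02 against 7.20 and 7.02. Its values overlapped almost fully, with a difference of 0.017 and a 95% interval of -0.23 to 0.26. Tnfaip1 stood at 0.14, Tnfaip8 at 0.028, Tnfaip6, a hyaluronan-binding protein, at -0.045 and Tnfaip8l1 at -0.0026. All 3 probe sets of Tnfaip1 were higher on both Blnc1 arrays, by 0.14, 0.13 and 0.19, and none passed.

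**Figure D4:**
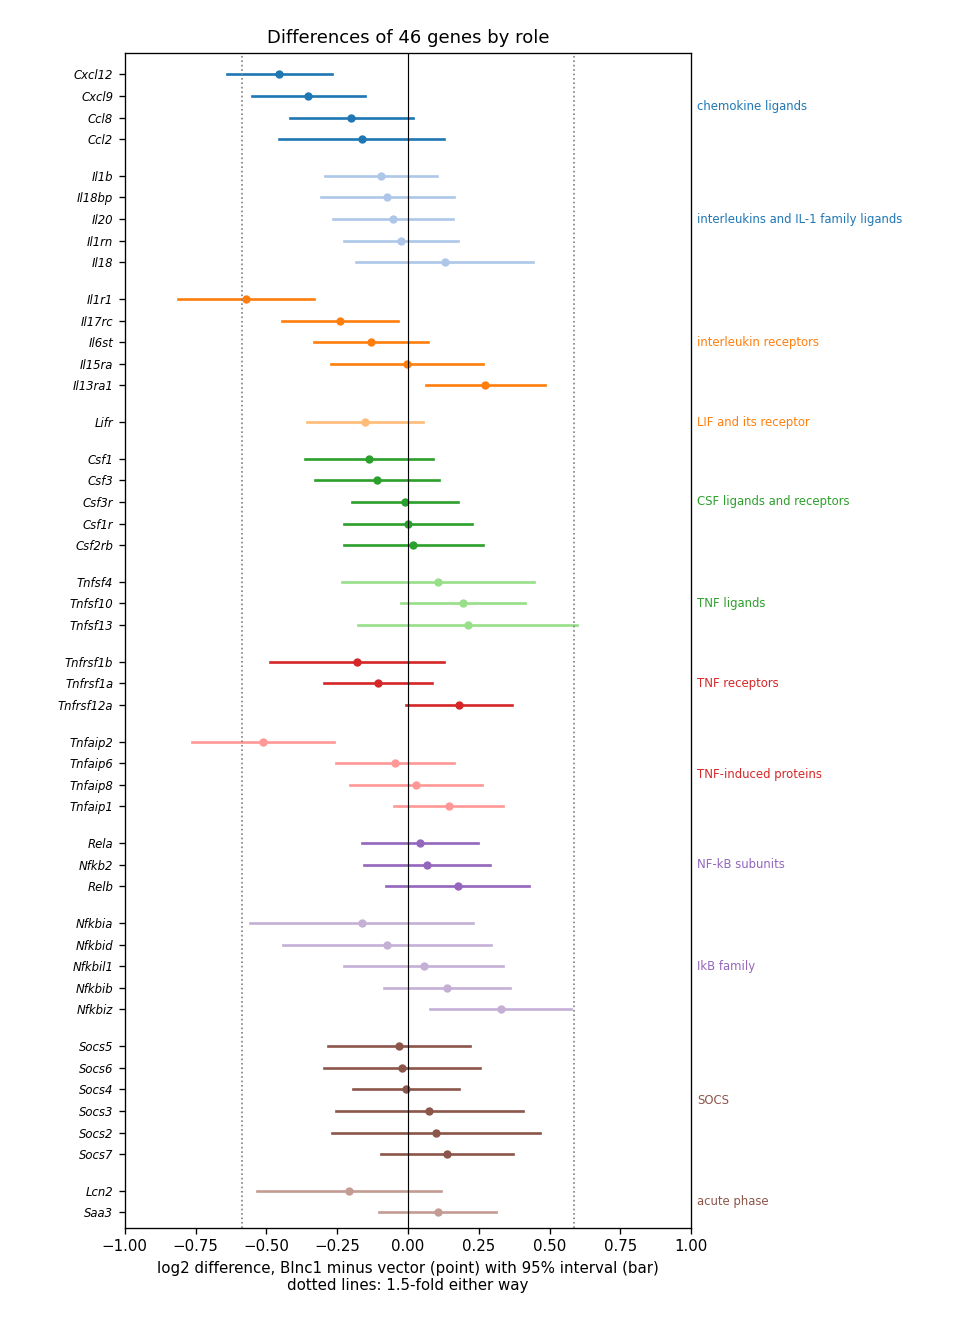
Log2 difference, Blnc1 minus vector (x axis), with its 95% interval from limma, for 46 genes of the module ordered by role; the dotted lines mark 1.5-fold either way. Most intervals include 0, and those of Cxcl12, Il1r1, Tnfaip2 and Tnfsf13 reach past 1.5-fold.

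NF-kB subunits were measured by 3 genes. Rela, the p65 subunit that carries much of the activation function, read 8.33 and 8.35 on the vector arrays and 8.44 and 8.31 on the Blnc1 arrays. The arrays of the 2 groups overlapped, with a difference of 0.041 and a 95% interval of -0.16 to 0.25. Relb and Nfkb2, the pair of the non-canonical branch, were dim, at 0.17 ± 0.10 and 0.067 ± 0.091 (SE). Relb was higher on both Blnc1 arrays, from 4.03 and 4.09 to 4.35 and 4.12.

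Of the 5 IkB family genes 3 were positive and 2 negative. Nfkbia, the classical inhibitor and itself an NF-kB target, read 8.06 and 7.74 on the vector arrays and 7.92 and 7.55 on the Blnc1 arrays. Replicates of either group were further apart than the group means, and the difference was -0.16 with a 95% interval of -0.56 to 0.23. Nfkbiz, a nuclear IkB protein that helps NF-kB at a subset of its targets, read 7.42 and 7.35 against 7.82 and 7.60. It stood higher on both Blnc1 arrays, at 0.33 ± 0.10 (SE, limma adjusted p = 0.175). The remaining probe sets of Nfkbiz stood at 0.43 and 0.18, both with groups apart. In the fit with a trend and robust variance prior Nfkbiz passed (limma adjusted p = 0.0457). That fit called many more of all genes than the fit reported, with the counts given at the end. Nfkbib, on a probe set that may cross-hybridise, stood at 0.14, Nfkbid at -0.075 and Nfkbil1, an IkB-like gene, at 0.055.

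The SOCS genes, which inhibit cytokine receptors and JAK kinases, overlapped between the groups in 5 of 6 cases, while 53.2% of all genes did not overlap. Socs2 read 6.91 and 6.82 against 7.18 and 6.74, and the Blnc1 arrays lay on either side of the vector arrays. Socs3, a target of STAT3, was dim and read 3.65 and 3.29 against 3.47 and 3.61. Socs4 read 8.34 on both vector arrays and 8.36 and 8.31 on the Blnc1 arrays, a difference of -0.0077 with a 95% interval of -0.19 to 0.18. The arrays of Socs7 were apart by little, at 6.65 and 6.84 against 6.92 and 6.85. A dimmer probe set of Socs7 read 6.06 and 6.09 against 6.31 and 6.27, a difference of 0.21 (limma adjusted p = 0.210). The dimmest overlapped between the groups, at -0.031. Socs5, Socs6 and Socs7 stood at -0.031, -0.021 and 0.14, and the 6 genes had a median of 0.034.

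Acute phase genes gave 2 members. Lcn2, the iron-chelator-binding lipocalin 2 that NF-kB induces in adipocytes, read 7.82 and 7.62 against 7.67 and 7.35. The groups overlapped, and the difference was -0.21 with a 95% interval of -0.53 to 0.12. Saa3, the serum amyloid A made in fat, read 4.98 and 4.88 against 4.98 and 5.08, a difference of 0.10 (95% interval -0.10 to 0.31).

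Replicate 2 read below replicate 1 in both groups for 24 of the 84 genes and above it in both for 15. Nfkbia, Lcn2, Ccl2, Cxcl10 and Tnfaip3 were among the 24. In Nfkbia, Ccl2 and Tnfaip3 this gap exceeded, in both groups, the difference between group means. Over all genes 34.0% were lower in replicate 2 in both groups.

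Of the pathway genes outside the naming rule, lists were compared in the same fit. Of 57 listed NF-kB signalling genes 40 were measured, 1 passed as higher and none as lower, and the median was 0.021. Over all genes 0.86% passed as higher and 0.366% as lower, and 1 gene of 40 describes that gene alone, not the list. The gene that passed was Tnip1, whose product binds A20 and restrains NF-kB signalling. It read 7.07 and 7.09 on the vector arrays and 7.76 and 8.01 on the Blnc1 arrays, so that the groups were wide apart. Its difference was 0.81 ± 0.10 (SE, 95% interval 0.56 to 1.06, limma adjusted p = 0.0416). The difference was 0.80 without vector replicate 1, 0.82 without vector replicate 2, 0.93 without Blnc1 replicate 1 and 0.69 without Blnc1 replicate 2. Tnip1 was higher in all 14 alternatives and passed in 7 of them, the looser threshold of 0.10 included. It did not pass after a repeated quantile normalization (limma adjusted p = 0.0581) or with the replicate number as a block (limma adjusted p = 0.0819). In the linear model without moderated variances, which called 0 probe sets in the whole table, its adjusted p was 0.311. Ikbkg, the regulatory subunit of the IkB kinase complex, read 6.96 and 7.06 against 7.47 and 7.45 and stood at 0.45 ± 0.080 (SE, limma adjusted p = 0.0710). Over the 14 alternatives described at the end, the difference of Ikbkg ran from 0.24 to 0.50. The kinase subunit Ikbkb stood at 0.11 and the adaptor Myd88, which links interleukin 1 and Toll-like receptors to NF-kB, at -0.25 ± 0.091 (SE, limma adjusted p = 0.220).

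JAK-STAT genes beside the SOCS family numbered 24 of 30 listed, none passed, and the median was 0.040. Bcl6, a transcriptional repressor regulated by STAT factors, read 9.04 and 9.05 against 9.39 and 9.48. Cntfr, the receptor chain for ciliary neurotrophic factor, read 5.24 and 5.30 against 5.67 and 5.74. Both were higher on both Blnc1 arrays, by 0.39 ± 0.079 and 0.44 ± 0.079 (SE), without passing (limma adjusted p = 0.0866 and 0.0725). Jak1, Jak2 and Stat3 stood at 0.00040, 0.020 and 0.046. At an unadjusted p under 0.05, 6 of the 24 were higher and 2 lower, beside 11.7% and 9.08% of all genes.

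The chemokine system outside the rule had 7 of 17 genes measured, with none past the test and a median of 0.067. Mif, a constitutively secreted cytokine, was bright and read 11.29 and 11.46 against 11.80 and 11.91, a difference of 0.48 ± 0.093 (SE, limma adjusted p = 0.0813). Cmtm3, a chemokine-like membrane protein, stood at -0.43 ± 0.083 (SE, limma adjusted p = 0.0813), from 5.45 and 5.34 to 5.00 and 4.93. Acute phase genes outside the rule had 7 of 14 measured, none past the test, 6 negative and a median of -0.048. Ptx3, a long pentraxin induced by interleukin 1 and TNF, read 8.21 and 8.13 against 7.84 and 7.75, a difference of -0.37 ± 0.083 (SE, limma adjusted p = 0.101). Serpina3n stood at -0.38 ± 0.12 (SE, limma adjusted p = 0.176), while the haemoglobin-binding haptoglobin, Hp, stood at 0.15 ± 0.14 (SE).

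Several of the 84 genes had further probe sets: 20 genes had 30 more. Of these 23 had the sign of the one used, and none passed the test.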

How the data were processed

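For each array the deposited values are log2 signals, 1 for every probe set. Per the submitters' processing notes the authors worked with RMA, affy and limma; versions and settings are not given in the sources used here. That the scale is log2 was read from the values, 2.70 to 13.29. Raw intensities were not used here.

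Control probe sets (35) were set aside. Of 23599 tested probe sets 16692 had 1 gene symbol in GEO's platform annotation, 372 had several and 6535 none. Groups and replicate numbers come from the sample titles. Blnc1 and vector arrays were compared with limma 3.58.1 in R 4.3.3 by a two-sided moderated test (lmFit, then eBayes) without covariates or a filter on signal. Adjustment was by Benjamini-Hochberg over every tested probe set, with 0.05 as the threshold. The variance prior had 3.95 degrees of freedom and an SD of 0.0917. The script was tested on simulated data. With 2 arrays against 2 an exact permutation test of 1 gene cannot go below p = 0.333, so none is given. Precision is limited by having only 4 arrays.

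The genes, roles and lists were chosen with earlier results of these data known. Genes are named by a rule: any of the 84 past the threshold, all members of the NF-kB, IkB, SOCS, LIF, CSF and acute phase classes, the 3 smallest p-values and 2 highest signals in every other class, the 10 largest differences above the array median, and per pathway list the called genes and the 2 smallest p-values. Other named genes, such as Tnfaip3, Cxcl10, Il10rb, Il1rap, Il6ra, Tnf, Ikbkb, Myd88, Jak1, Jak2, Stat3 and Hp, were chosen after their values were seen. The alternatives were other variance priors, normalizations, filters, probe choices and thresholds, the replicate number as a block, no moderation, and leaving out each array.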

Additional observations from a re-analysis of the deposited data

How the results depend on the processing

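The results were recomputed under 14 alternatives, of which the counts for pathway lists, for genes and at an unadjusted p were added after the data had been seen. The number of the 84 genes past the threshold, 0 in the fit reported, was 3 with an intensity trend in the variance prior, 4 with trend and robust, 1 after median centring, 2 among probe sets above the array median, 1 after averaging the probe sets of each gene and 3 at a threshold of 0.10. It was 0 in the other 8 alternatives, each left-out array included. Probe sets past the threshold over the whole table, 219 as reported, came to 2174, 2224, 1026 (above the median) and 958 (threshold of 0.10), to 0 without moderation and to 3 to 38 without 1 array. Genes past it, 134 as reported, came to 1237, 1259, 614, 545, 0 and 3 to 23 in the same order. With the replicate number as a replicate block 30 probe sets, 19 genes and 0 of the 84 passed. Counts over the whole table after median centring and after averaging are not given here. The differences of replicate 2 and replicate 1 in the 2 groups correlated at 0.09 over probe sets, and the numbers were not treated as pairs; the labels do not say whether they mark a shared culture or day.

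The NF-kB list (1 passed as reported) had 3 past the threshold with either trend setting, above the median and at 0.10. It had 0 with repeated quantile normalization, the block, no moderation and each array left out. The JAK-STAT list (0 as reported) had 3, 3, 2 and 2, the chemokine list 2, 2, 1 and 2, and the acute phase list 1, 1 and 1 in the trend, robust and filtered fits. In the same settings the genes past the threshold over the whole table also rose, to the counts in the paragraph above. The list counts are therefore no result about the lists, and their directions are not given here. Above the array median 4 genes of the module had higher and 7 lower groups that did not overlap, beside 2078 and 1868 of all 6510 genes there, and 5 had an unadjusted p under 0.05, as did 5 without moderation and 5 to 12 without 1 array. For the fits above the median, without moderation and without 1 array, the share of all genes at that p is not given here. The counts of 5, 5 and 5 to 12 therefore cannot be set against a background. The module's median difference ran from -0.033 (without vector replicate 2) to 0.014 (without vector replicate 1). The 21 genes above the array median became 18 after this averaging. For 46 genes of the module, 33 of 617 values changed sign, none past the threshold, and 14 values passed, of Cxcl12, Il1r1, Tnfaip2 and Nfkbiz. The cause of these differences was not tested.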
